A study of Mus musculus with 18 samples.

Results

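Cerebellum was compared with hippocampus in wild-type (WT) mice, with both regions taken from the same animals. The arrays were chosen by their titles: 3 name WT cerebellum and 3 name WT hippocampus, and mice 3405, 3406 and 3396 each gave 1 array of either region. These are 6 of the 18 arrays of the series. The other 12 hold WT cortex and the cerebellum, hippocampus and cortex of 3 mice without Aldh5a1 (Aldh5a1-/-, KO; mice 3363, 3389 and 3403), the gene of succinate semialdehyde dehydrogenase, the enzyme that ends the breakdown of the transmitter GABA. No treatment, allele or transgene is named for the WT mice, and strain, age, sex and dissection are not given in the sources used here. RNA of the tissue was read on Affymetrix mouse arrays, and the value of a probe set is its deposited intensity, called signal below. A gene of a list is described by its brightest probe set, and any other gene by the one with the largest difference, unless another is named. Values of 3 arrays always follow the order 3405, 3406, 3396.

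One label names hippocampus as the source of every sample, so region was read from the titles and descriptions and then checked against markers. Summed over 14 granule cell genes, the signal was 15357, 15457 and 13746 in cerebellum, against 2547, 2284 and 2175 in hippocampus. Summed over 19 forebrain glutamatergic neuron genes, it was 6139, 6899.5 and 5409 in cerebellum, against 17101, 18375 and 17479.7 in hippocampus. The 6 arrays therefore carried the markers of the regions in their titles. Correlations of log2 signal ran from 0.955 to 0.968 among cerebellum arrays, from 0.967 to 0.976 among hippocampus arrays and from 0.869 to 0.888 between the regions. The cerebellum array of mouse 3396 stood apart in genes of choroid plexus, ependyma and meninges. Their sum over 15 genes was 4936, 4849 and 9765 in cerebellum, against 7137, 7623 and 7969 in hippocampus. Within that sum, Ptgds read 2185, 2051 and 4173 in cerebellum, and Ttr 27, 88.1 and 1112. Array medians were 53.5 to 56.9 in cerebellum and 58.6 to 61.2 in hippocampus, and centring arrays on the median moves the median difference between the regions up by 0.11 on the log2 scale. The ratio of 3′ to 5′ Gapdh probe sets, a measure of RNA integrity, averaged 0.796 ± 0.00677 in cerebellum and 0.841 ± 0.0429 in hippocampus (SD, n = 3 each). The same ratio for actin varied more, with 1.29, 1.18 and 1.37 in cerebellum, against 1.09, 1.36 and 1.46 in hippocampus.

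The cerebellar cortex is built of granule cells, the most numerous neurons of the brain, which excite Purkinje cells, the inhibitory neurons that send the output of the cortex to the deep nuclei. Bergmann glia, a form of astrocyte, wrap the Purkinje cell dendrites. The hippocampus is built of glutamatergic pyramidal cells and dentate granule cells, with local inhibitory interneurons among them. The cerebellum grows from the anterior hindbrain and the hippocampus from the dorsal forebrain, and each keeps transcription factors of its origin in adult neurons.

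For 3 genes with large differences the 250 bases before the start site are shown. Other such genes, among them Cbln1, Ppp1r17 and Crym, had no window in the sequences at hand. Gabra6 is the GABA-A receptor subunit of mature cerebellar granule cells. Nrgn is neurogranin, a calmodulin-binding protein of forebrain dendrites, and Tbr1 is a T-box factor of forebrain glutamatergic neurons. Both were read far above the floor in hippocampus and not in cerebellum. The sequences are RefSeq's for build GRCm38.p6, 5′ to 3′ on the strand of the gene: Gabra6 at chr11:42321073-42321322 (minus strand), Nrgn at chr9:37552746-37552995 (minus strand) and Tbr1 at chr2:61804203-61804452 (plus strand). Capitals mark matches to TTGGC (a motif of nuclear factor I) or CAGATG (an E-box, the motif of basic helix-loop-helix factors such as the Neurod proteins) on either strand.
Gabra6: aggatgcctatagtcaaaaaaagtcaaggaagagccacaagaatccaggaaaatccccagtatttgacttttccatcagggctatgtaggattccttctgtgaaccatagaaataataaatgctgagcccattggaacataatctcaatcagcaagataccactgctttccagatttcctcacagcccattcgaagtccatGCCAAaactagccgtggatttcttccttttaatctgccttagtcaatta
Nrgn: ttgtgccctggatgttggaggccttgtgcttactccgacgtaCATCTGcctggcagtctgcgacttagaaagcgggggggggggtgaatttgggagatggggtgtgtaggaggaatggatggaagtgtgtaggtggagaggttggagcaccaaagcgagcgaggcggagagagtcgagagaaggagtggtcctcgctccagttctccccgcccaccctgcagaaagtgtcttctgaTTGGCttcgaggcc
Tbr1: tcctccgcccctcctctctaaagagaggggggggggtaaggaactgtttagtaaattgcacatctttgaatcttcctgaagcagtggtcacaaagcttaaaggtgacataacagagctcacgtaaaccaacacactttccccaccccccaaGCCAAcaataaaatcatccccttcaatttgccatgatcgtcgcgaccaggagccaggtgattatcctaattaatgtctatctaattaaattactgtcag
The capitals begin 49 bases before the start site in Gabra6, 208 (E-box) and 14 (TTGGC) bases before it in Nrgn and 99 bases before it in Tbr1. The table covers 70 of the 94 genes at least 4-fold higher in cerebellum, 87 of the 123 at least 4-fold lower and 5031 of the 6249 genes tested, each by a window of 300 bases. Searched on both strands, TTGGC stood in 48.6% of the windows of the higher genes, 57.5% of those of the lower genes and 56.3% of all. CAGATG stood in 17.1%, 18.4% and 13.7% of the windows in the same order, and the E-box CAGCTG in 22.9%, 20.7% and 17.5%. AGGTCA, the motif of nuclear receptors such as Rora, stood in 21.4%, 11.5% and 15.5%, and TGACGT, a cyclic AMP response motif, in 10%, 11.5% and 13.8%. Matches of different motifs were counted separately, overlaps included. These shares describe the letters in the windows and were not tested.

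Across 8382 probe sets with signal in the series, 1235 (14.7%) were higher in cerebellum and 1373 (16.4%) were lower, together 31.1% (limma with the animal as a block, adjusted p under 0.05). The split was 47.4% higher to 52.6% lower, and with arrays centred on their medians it was 62.4% to 37.6% (1631 and 981 probe sets). The median difference over all probe sets was -0.05 on the log2 scale, and the median of the sizes 0.316. A called probe set differed by 1.63-fold at the median where higher and 1.71-fold where lower. At least 2-fold differences were called for 377 probe sets (4.50%) that were higher and 483 (5.76%) that were lower, and at least 8-fold ones for 31 and 42. The difference had the same sign in 3 of 3 mice for 1226 of the 1235 higher and 1357 of the 1373 lower probe sets. These signs come from the same arrays that made the calls, so they are no separate support for them. The 3 values of one region lay wholly above those of the other for 1172 of the higher and 1286 of the lower, where over all probe sets tested this held for 1652 (19.7%) in the higher and 1899 (22.7%) in the lower direction. In tissue of mixed cells, fewer cells of a type and less RNA per cell cannot be told apart, here and in every comparison below. Counts in the gene lists below are to be read against 14.7% higher and 16.4% lower over all probe sets. Those shares include every probe set of a gene, whereas a list counts only the brightest, so the comparison is rough.

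**Figure D1:**
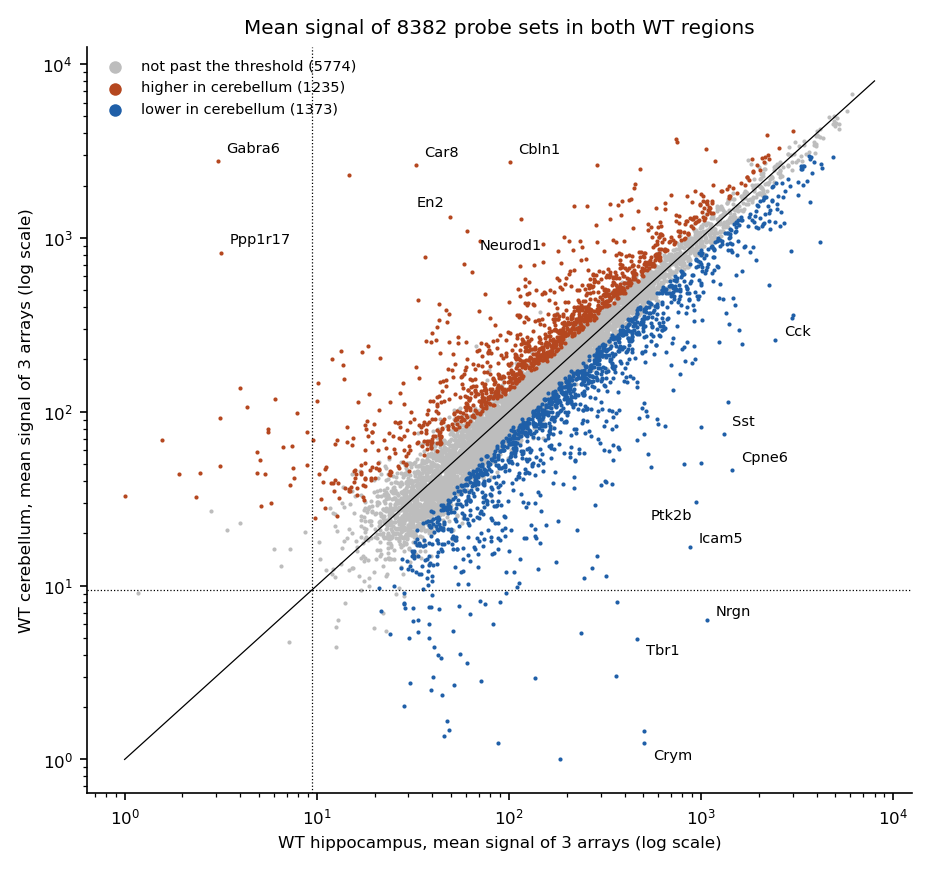
Mean signal of each of 8382 probe sets in WT cerebellum (vertical) and WT hippocampus (horizontal), both on log scales, 3 arrays each; red points were higher in cerebellum, blue points lower, grey points not past the threshold, and dotted lines mark the floor below which signals were set equal. Gabra6, Ppp1r17 and Car8 lie far to the cerebellar side, and Nrgn, Icam5 and Tbr1 far to the hippocampal side.

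Granule cell genes were higher in cerebellum: of 20 listed, 14 were tested, and 14 of 14 were called higher with a median log2 difference of 2.63. Gabra6 read 2692, 2881 and 2749 in cerebellum, against 2.4, 1.42 and 5.33 in hippocampus. The hippocampal values all lay under the floor of 9.464 at which low signals were set equal, so the difference was at least 293-fold (log2 8.19 with low values at the floor, adjusted p = 1.46e-13). Where 1 or 2 arrays of the lower region lay under the floor, the printed size is likewise a minimum: in hippocampus this holds for Zic2, Zic4, En1, Syt9 and Cdh15, and in cerebellum for Nrgn, Icam5, Mef2c, Fezf2, Meis2, Lhx6, Gabra3, Grin2a, Grin2b, Chrm1, Sstr2, Pde1a, Egr2, Cdh13, Robo1, Myo5b and Kl. Its other probe set read 2282, 2480.1 and 2113 in cerebellum, against 10.9, 14.6 and 18.7 in hippocampus, a 159-fold difference. Cbln1, the secreted protein by which granule cell axons bind their Purkinje cell partners, read 2572, 3043 and 2586 in cerebellum, against 112, 108 and 84.6 in hippocampus (27.1-fold, adjusted p = 6.22e-12). The arrays of the 2 regions lay far apart for both genes, with little spread inside each region. Neurod1, a helix-loop-helix factor of granule neurons, read 1314, 1046 and 909.7 in cerebellum, against 55.2, 53 and 73.6 in hippocampus (18-fold, adjusted p = 5.17e-11). Gabrd, the extrasynaptic GABA-A subunit that pairs with Gabra6, read 419.5, 582 and 313 in cerebellum, against 42.1, 22.4 and 36.2 in hippocampus (13.1-fold, adjusted p = 3.11e-08).

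Transcription factors of the granule lineage showed the same separation. Zic1, a zinc finger factor, read 2662, 2529 and 2684 in cerebellum, against 381, 347 and 140.3 in hippocampus (9.91-fold, adjusted p = 3.78e-08). Zic4 was higher by 2.57 on the log2 scale, and Zic2 by 2.68 with one probe set but by 0.07 (adjusted p = 0.899) with the other. Pax6, needed for granule cell migration, read 276, 244 and 229.5 in cerebellum, against 57.2, 62.5 and 44.1 in hippocampus (4.61-fold, adjusted p = 9.31e-07). Uncx, a homeobox gene, was 16.6-fold higher (211, 256 and 202 in cerebellum, against 13.2, 13.3 and 13.7 in hippocampus). No hippocampal array reached a cerebellar one for Zic1, Pax6 or Uncx. Smaller differences were read for Calb2, the calcium buffer calretinin (3.93-fold), Grin2c, an NMDA receptor subunit (3.08-fold), and Reln, the secreted guidance protein reelin (2.6-fold). The smallest of the 14 was Kcnd2, a potassium channel (log2 0.60, adjusted p = 0.049), whose call was lost without WT mouse 3405 (0.45, adjusted p = 0.154) or 3406 (0.49, adjusted p = 0.189) and without KO mouse 3389 (adjusted p = 0.0741) or 3403 (adjusted p = 0.0535).

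Purkinje cell genes were higher for 15 of 19 tested (28 listed), with a median log2 difference of 2.17. Ppp1r17, a protein phosphatase inhibitor known as G-substrate, read 808, 891 and 764 in cerebellum, against 3.82, 2.43 and 3.26 in hippocampus, all under the floor (at least 86.6-fold, adjusted p = 6.22e-12). Car8, a carbonic anhydrase relative that binds the inositol trisphosphate receptor, read 3061, 2234 and 2562 in cerebellum, against 43.1, 19.7 and 35.9 in hippocampus (83.1-fold, adjusted p = 6.16e-11). By brightest probe sets these were the steepest of the list, and neither overlapped. The dimmer Ppp1r17 probe set gave a smaller log2 difference of 2.88 (adjusted p = 2.97e-06), with means of 257 in cerebellum and 36.9 in hippocampus. Slc1a6, the Purkinje cell glutamate transporter EAAT4, read 1054, 1041 and 771 in cerebellum, against 72.7, 82 and 58.5 in hippocampus (13.4-fold). Pcp2, a G protein regulator named for Purkinje cells, read 1289.5, 1197 and 1364 in cerebellum, against 106, 187 and 53.4 in hippocampus (12.6-fold, adjusted p = 1.08e-06). Cacna1g, a T-type calcium channel, read 432, 284 and 292 in cerebellum, against 57.2, 38.8 and 33.2 in hippocampus (7.85-fold). The spread between mice was wider for Pcp2 in hippocampus than for the others, yet the regions stayed apart.

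Calcium buffers of Purkinje cells were also higher. Pvalb (parvalbumin, carried as well by inhibitory interneurons) read 3508, 3581 and 4081 in cerebellum, against 737, 774 and 704 in hippocampus (5.04-fold, adjusted p = 1.36e-09). Calb1 (calbindin) read 1839, 1706 and 1374 in cerebellum, against 362, 385 and 418 in hippocampus (4.2-fold). Homer3, the scaffold that ties metabotropic receptors to calcium stores, was 4.63-fold higher. Rora, the nuclear receptor without which Purkinje cells fail to mature, was 4.51-fold higher, Ebf1 5.04-fold and the LIM factor Lhx5 at least 5.44-fold. Lhx1, its relative, was higher by 1.52, and that call was lost without mouse 3396 (1.12, adjusted p = 0.115). Of the other members, Ldb1 and Ebf2 did not pass the threshold, while the potassium channel Kcnma1 (-0.71) and the peptide Cck (-3.24) were lower in cerebellum.

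**Figure D2:**
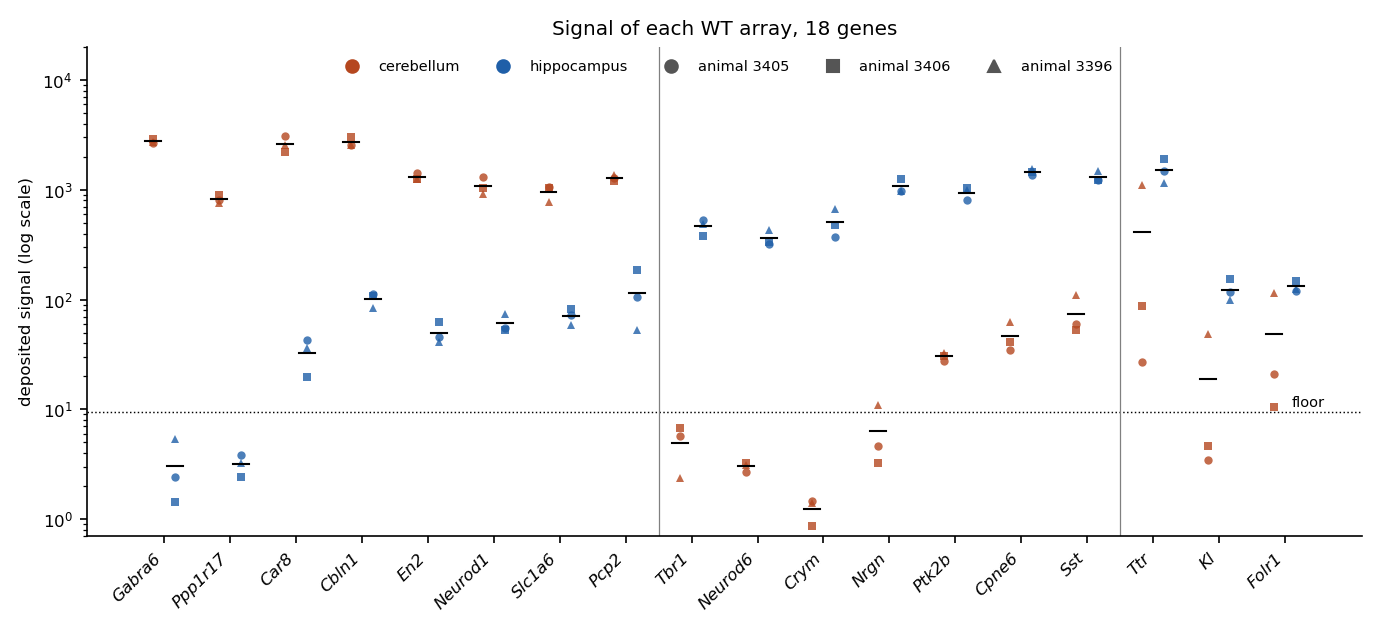
Signal on a log axis of 18 genes on each WT array, with cerebellum in red at the left of each gene and hippocampus in blue at the right; circles are mouse 3405, squares 3406, triangles 3396, short bars the means and the dotted line the floor. The 2 regions do not overlap for the granule cell, Purkinje cell and forebrain genes, whereas for Ttr the cerebellum of mouse 3396 lies close to the hippocampus.

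Other cells of the cerebellar cortex are inhibitory interneurons, unipolar brush cells and Bergmann glia. Of 7 tested genes of cerebellar interneurons and unipolar brush cells (12 listed), 4 were higher and 1 was lower. Eomes, the T-box factor of unipolar brush cells, read 153, 64.8 and 56.9 in cerebellum, against 2.65, 2.7 and 4.01 in hippocampus, all under the floor (at least 8.73-fold, adjusted p = 4.00e-05). The other 3 were Slc32a1, the vesicular GABA transporter (log2 0.47), the glycine transporter Slc6a9 (0.43) and the receptor Kit (0.38), all small. The number called higher was 3, 1 and 3 without mouse 3405, 3406 and 3396, and Eomes was called each time. Slc32a1 did not pass without mouse 3406 (0.33, adjusted p = 0.0729), and Slc6a9 did not pass without mouse 3396 (0.23, adjusted p = 0.239) or 3406 (0.48, adjusted p = 0.055). Kit did not pass without any one mouse of either genotype except 3396, with adjusted p of 0.228 without mouse 3405, 0.236 without mouse 3406 and 0.0651 to 0.0713 without a KO mouse. The GABA-synthesising enzymes Gad1 (0.19, adjusted p = 0.157) and Gad2 (-0.44, adjusted p = 0.325) did not pass the threshold. The lower member of this list was Npy (-1.65, adjusted p = 7.21e-07). Of 11 tested Bergmann glia genes (15 listed), 7 were higher and 3 lower. The lower ones were Gria1 (-1.31, adjusted p = 1.18e-06), Slc1a2 (-0.74) and Ptprz1 (-0.37, by its brightest probe set only). Gdf10, a growth factor of the bone morphogenetic family, read 857, 629.5 and 627 in cerebellum, against 51.7, 55.5 and 68.4 in hippocampus (12-fold, adjusted p = 4.81e-09). Septin4 read 1815, 2331 and 2012 in cerebellum, against 544, 490.3 and 325 in hippocampus (4.61-fold). The AMPA receptor subunit Gria4 was 4.24-fold higher, Hopx 2.24-fold, the fatty acid carrier Fabp7 2.13-fold and the water channel Aqp4 2.06-fold; without the animal block Fabp7 did not pass (adjusted p = 0.0662).

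Genes of hippocampal pyramidal and dentate granule cells were lower in cerebellum for 13 of 15 tested (29 listed), with a median log2 difference of -2.45. Crym, a thyroid hormone binding protein, read 1.46, 0.859 and 1.4 in cerebellum, all under the floor, against 373, 481 and 669.7 in hippocampus (at least 52.1-fold lower, adjusted p = 6.34e-12). Neurod6, a helix-loop-helix factor of pyramidal cells, read 2.68, 3.23 and 3.14 in cerebellum, also under the floor, against 323, 332 and 429 in hippocampus (at least 37.9-fold lower). Neither rose above the floor in any cerebellum. Dsp, a desmosome protein of dentate granule cells, read 16.2, 25.8 and 20.6 in cerebellum, against 197, 225 and 256 in hippocampus (log2 -3.45, adjusted p = 8.11e-09). Rgs14, a G protein regulator of area CA2, read 73.2, 76.8 and 98.5 in cerebellum, against 556, 649 and 744 in hippocampus (log2 -2.97). Wfs1, a CA1 gene of the endoplasmic reticulum, read 147, 159.6 and 96.5 in cerebellum, against 750.5, 686 and 719.9 in hippocampus (log2 -2.45). No cerebellar array reached a hippocampal one for Dsp, Rgs14 or Wfs1. Prox1, the homeobox factor of dentate granule cells, read 23.9, 28.5 and 13.1 in cerebellum, against 40.6, 43.5 and 40.8 in hippocampus (2-fold lower, adjusted p = 0.0382), and its call was lost without any one of the 3 WT mice (-0.68, adjusted p = 0.244, without mouse 3396). Tdo2 (1.51) and Nptx1 (0.88) were higher in cerebellum. The second Tdo2 probe set gave 0.18 (adjusted p = 0.7).

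Genes shared by glutamatergic neurons of the forebrain were lower for 16 of 19 tested (28 listed), with a median of -2.22. Nrgn read 4.68, 3.27 and 11 in cerebellum, the first and second under the floor, against 984, 1258 and 984 in hippocampus (log2 -6.74 or beyond, adjusted p = 8.15e-12). Tbr1 read 5.76, 6.74 and 2.36 in cerebellum, all under the floor, against 532, 382 and 487 in hippocampus (at least 48.9-fold lower, adjusted p = 6.10e-12). Icam5, the dendritic adhesion protein telencephalin, read 18.8, 7.63 and 23.4 in cerebellum, against 787, 837 and 1016 in hippocampus (log2 -5.77). For these 3 genes no cerebellar signal came near a hippocampal one. Ptk2b, a calcium-activated tyrosine kinase, read 27.6, 30.7 and 32.7 in cerebellum, against 802, 1034 and 992 in hippocampus (log2 -4.95). Camk2a, the kinase of synaptic plasticity, read 4.31, 5.3 and 6.35 in cerebellum, against 149, 459 and 105 in hippocampus (at least 20.4-fold lower). Its size leaned on the hippocampus of mouse 3406, without which the log2 difference was -3.73 and not -4.35. Hpca (hippocalcin, a neuronal calcium sensor) read 323, 372 and 345 in cerebellum, against 2735, 3114 and 3036 in hippocampus (log2 -3.10, adjusted p = 1.85e-11), and was above the floor in both regions. Mef2c, a MADS-box factor, was lower by 3.05 and Lmo4, a LIM-only protein, by 2.22. Cnr1, the cannabinoid receptor carried by granule cell axons, was higher in cerebellum (1.50, adjusted p = 0.0262), with the call lost without mouse 3405 (1.36, adjusted p = 0.147) and without mouse 3406 (1.19, adjusted p = 0.174). Neurod2 (0.28, adjusted p = 0.233) and Vsnl1 (-0.28, adjusted p = 0.134) were not called, though Neurod2 was without mouse 3405 (0.52, adjusted p = 0.0119) and Vsnl1 without mouse 3406 (-0.44, adjusted p = 0.0225).

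Several genes outside the cell type lists also differed many-fold. Cpne6, a calcium-dependent membrane-binding copine of hippocampal neurons, read 35.1, 41.1 and 62.7 in cerebellum, against 1371, 1456 and 1540.1 in hippocampus (log2 -5.02). St6galnac5, which adds sialic acid to gangliosides, read 49.4, 59.1 and 43.6 in cerebellum, against 982, 998 and 1028 in hippocampus (log2 -4.32). Kalrn, a signalling protein of dendritic spines, read 145, 114 and 81.6 in cerebellum, against 1415, 1362 and 1354 in hippocampus (log2 -3.64). No cerebellar array overlapped a hippocampal one for these 3 genes. The regulator of G protein signalling Rgs4 (-3.48) and the insulin-like growth factor binding protein Igfbp4 (-3.36, or -1.37 by its other probe set) were also lower. So was lipoprotein lipase Lpl (at least 14-fold by the probe set whose cerebellar values were all under the floor). On the cerebellar side, Mybpc3, known as a thick filament protein of heart muscle, read 857, 874 and 603 in cerebellum, against 36.3, 36.9 and 37.2 in hippocampus (20.9-fold, adjusted p = 1.34e-09). Atp2a3, a calcium pump of the endoplasmic reticulum, was 12-fold higher, the collagen gene Col18a1 at least 14.4-fold by the probe set whose hippocampal values were all under the floor, and Cox6b2, a cytochrome oxidase subunit known from testis, at least 10.1-fold. The histocompatibility gene H2-K2 was 12.8-fold higher, but near-identical relatives can share its probes, so which gene was read is uncertain.

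Genes of forebrain inhibitory interneurons were lower for 11 of 20 tested (23 listed), mostly peptide and homeobox genes, and higher for 5. Sst (somatostatin) read 59.9, 52.9 and 110.5 in cerebellum, against 1235, 1228 and 1485 in hippocampus (log2 -4.22, adjusted p = 2.55e-09). Cck (cholecystokinin) read 257, 263 and 255 in cerebellum, against 2331, 2502 and 2490.1 in hippocampus (log2 -3.24, adjusted p = 8.15e-12). Npy (neuropeptide Y) read 124, 151 and 171 in cerebellum, against 417, 447 and 533 in hippocampus (log2 -1.65). All 3 peptides kept their regions apart, with Cck the most even between mice. The homeobox factors of interneuron origin Dlx1 (at least 8.97-fold), Dlx2 (at least 5.08-fold), Dlx5 (at least 4.7-fold) and Lhx6 (5.04-fold) were lower. The 5 that were higher were Pvalb, Penk, Calb2, Reln and Slc32a1. All of them but Penk are also in the cerebellar cell lists above, as are Cck and Npy, which were lower. Penk (proenkephalin, the precursor of opioid peptides) read 1645, 1426 and 1540.4 in cerebellum, against 387, 386 and 343 in hippocampus (4.13-fold). Gad1, Gad2, Nos1 and Maf were not called.

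**Figure D3:**
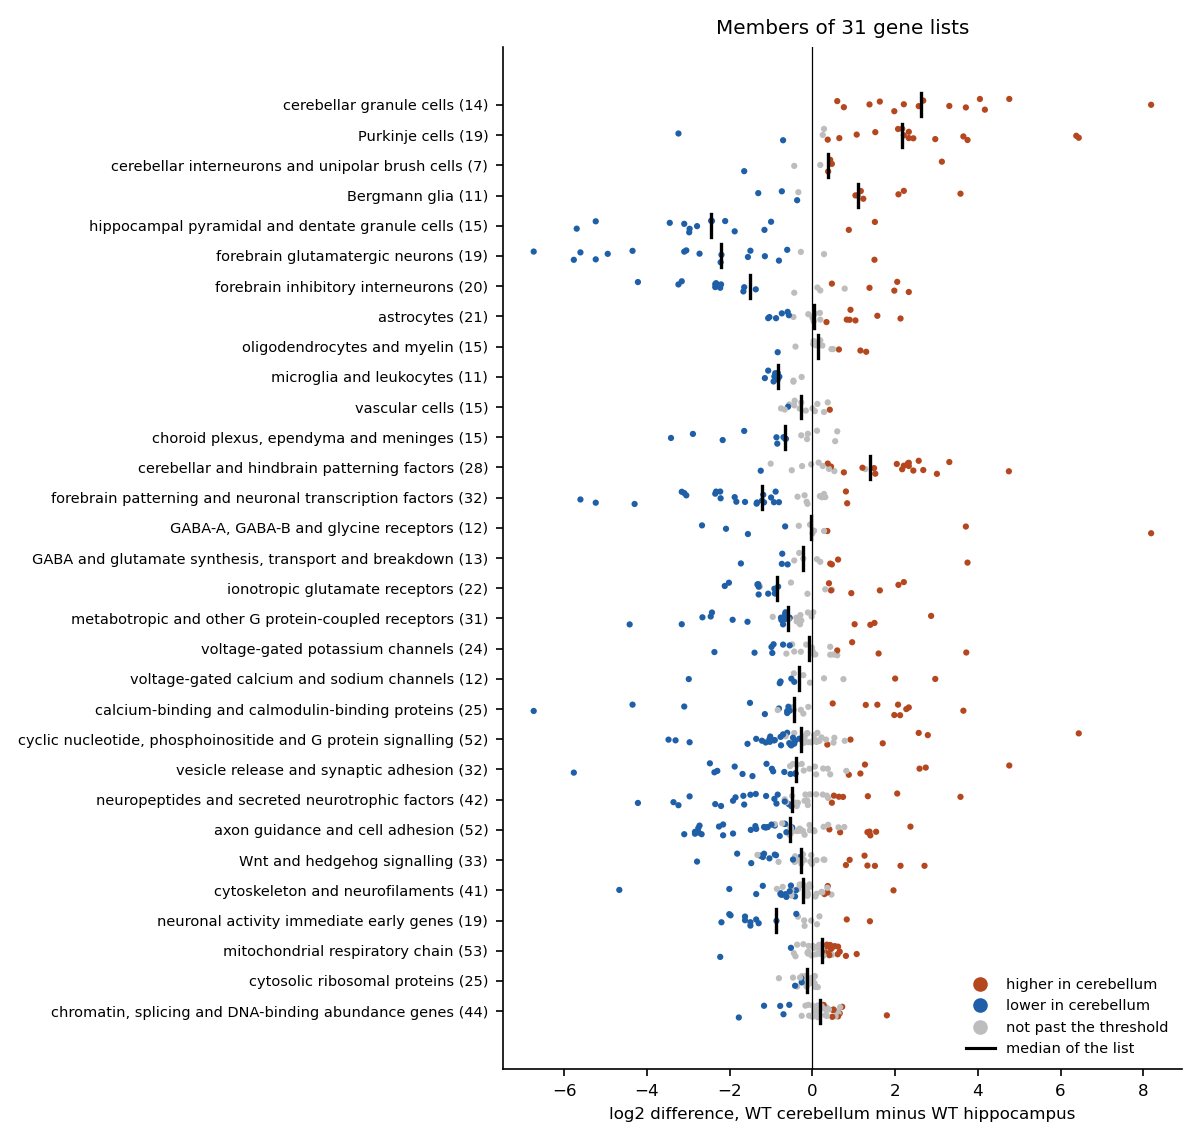
Log2 difference, WT cerebellum minus WT hippocampus, of the tested members of 31 gene lists, with the number tested in parentheses; red points were higher in cerebellum, blue points lower, grey points not past the threshold, and black bars are list medians. Granule cell genes (median 2.63) and Purkinje cell genes (2.17) stand at one end, and hippocampal (-2.45) and forebrain glutamatergic genes (-2.22) at the other.

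Patterning factors were listed by known region of origin or, for some, by the cells of that region known to carry them. The split between the lists is therefore a description. Of 28 tested factors of the hindbrain and cerebellum (48 listed, among them the Zic, Pax6, Eomes, Neurod1 and Rora genes above), 18 were higher and 1 was lower, with a median of 1.38. En2, the engrailed factor of the midbrain and anterior hindbrain, read 1438, 1250.5 and 1244 in cerebellum, against 45.2, 62.6 and 40.9 in hippocampus (26.8-fold, adjusted p = 1.72e-10). En1 was 4.11-fold higher, Irx3 5.04-fold, Meis1 at least 4.97-fold, and Pbx3, a partner of Meis and Hox factors, was higher by 1.49 (0.50, adjusted p = 0.0919, by the dimmest of its 3 probe sets). Meis2 was the exception (-1.25), and it did not pass without mouse 3405 (-1.21, adjusted p = 0.0567). Of 32 tested factors of the forebrain (51 listed), 22 were lower and 2 higher, with a median of -1.21. Fezf2, which specifies deep-layer projection neurons of the cortex, read 11.6, 5.12 and 28 in cerebellum, against 252, 318 and 294 in hippocampus (log2 -4.30, adjusted p = 1.06e-07). Sox11 (-1.84), the chromatin organiser Satb1 (-1.19), Nr2f1 (-0.93) and Tcf4 (-0.89) were lower by less, while Id2 (0.84) and Cux1 (0.81) were higher.

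GABA-A receptor subunits were called in both directions. Of 12 tested genes of GABA-A, GABA-B and glycine receptors (26 listed), 3 were higher (Gabra6, Gabrd and the glycine receptor subunit Glrb), 4 were lower and 5 were not called. Gabra2, a synaptic alpha subunit of forebrain neurons, read 68.4, 99.8 and 23.8 in cerebellum, against 330.3, 372 and 341 in hippocampus (log2 -2.67, adjusted p = 1.37e-04). Gabrb1 read 215, 189.7 and 179.6 in cerebellum, against 776, 875 and 828 in hippocampus (log2 -2.09, adjusted p = 7.52e-10), and Gabra3 was lower by at least 1.56, with 9.3, 2.74 and 10.4 in cerebellum, the first and second under the floor, against 30.6, 29.5 and 26.2 in hippocampus. The low Gabra2 value of mouse 3396 weighed on that gene, whose log2 difference was -2.09 without it. The GABA-B receptor subunit Gabbr1 read 1453, 1615 and 1349 in cerebellum, against 1453, 1618 and 1335 in hippocampus (log2 0.00, adjusted p = 0.98), and Gabrb2 differed by 0.04 (adjusted p = 0.885). The Gabbr1 values of each mouse were nearly equal in the 2 regions. Gabrg3 (-0.66, adjusted p = 0.0379) lost its call without any one mouse of either genotype, with adjusted p of 0.16, 0.13 and 0.0835 without mouse 3405, 3406 and 3396. Glrb (0.36) lost it without mouse 3405 (0.22, adjusted p = 0.194) and without mouse 3396 (0.38, adjusted p = 0.0533).

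Among 22 tested ionotropic glutamate receptor genes and partners (40 listed), 11 were lower and 6 higher, with a median of -0.86. AMPA receptor subunits changed in opposite directions. Gria1 read 607, 704 and 528 in cerebellum, against 1227, 1739 and 1599 in hippocampus (log2 -1.31, adjusted p = 1.18e-06). Gria2 read 1388, 1327 and 1530.0 in cerebellum, against 2523, 2646 and 2682 in hippocampus (log2 -0.89), and Gria3 was lower by 1.33. Gria4 read 114, 64.2 and 60.1 in cerebellum, against 18.2, 20.3 and 15.6 in hippocampus (log2 2.08, adjusted p = 8.51e-05). For all 4 subunits the sign was carried by the 3 mice alike. NMDA receptor subunits divided in the same way: Grin2c read 717, 686 and 528 in cerebellum, against 194, 202 and 226 in hippocampus (log2 1.63, adjusted p = 7.02e-07), while Grin2b, its forebrain counterpart, was lower by 2.02 (adjusted p = 2.66e-04). Grin2a differed by -1.27 without passing the threshold (adjusted p = 0.0534), and passed it without mouse 3405 (-1.68, adjusted p = 0.0446). Auxiliary proteins followed suit, with the AMPA receptor partner Cnih2 lower by 2.12 and Cacng2 (stargazin), which brings AMPA receptors to granule cell synapses, higher by 0.94. The kainate receptor subunit Grik5 (-1.30, or -0.20 with adjusted p = 0.645 by its dimmer probe set) and the scaffold Homer2 (-1.07) were lower.

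**Figure D4:**
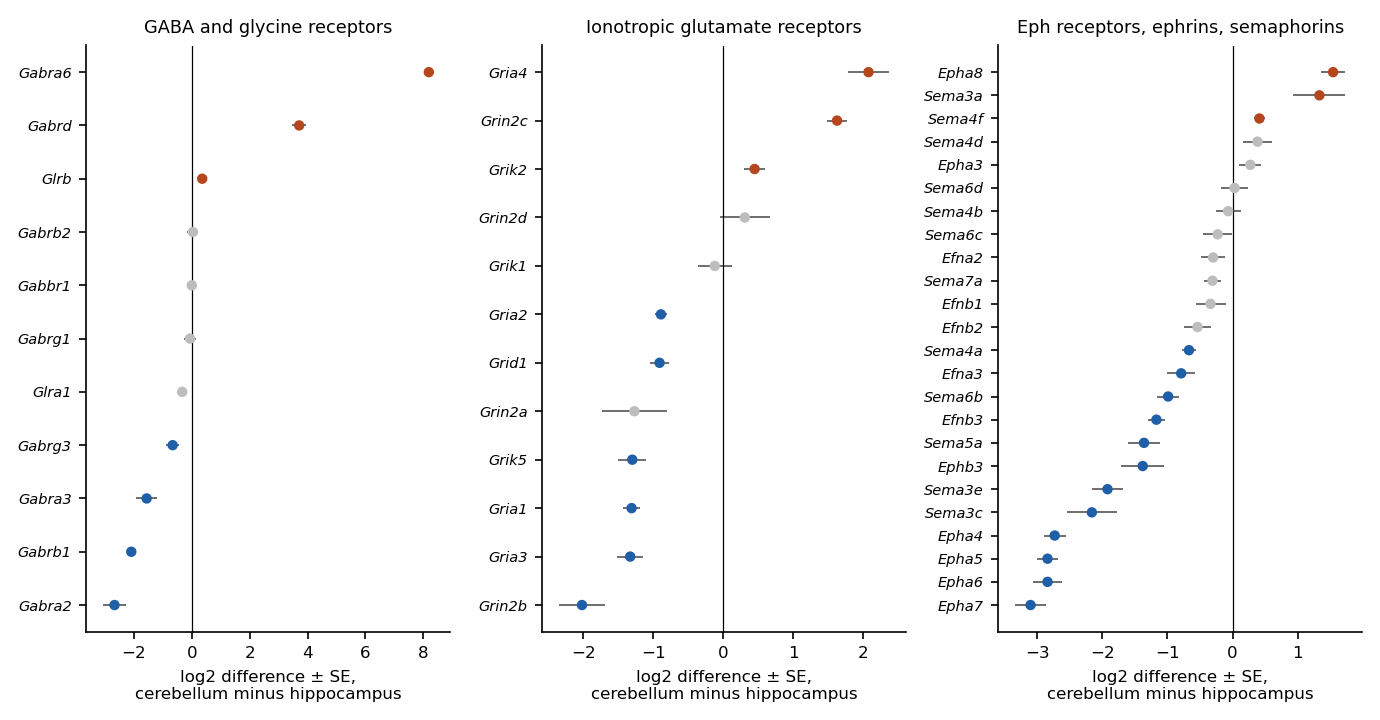
Log2 difference, WT cerebellum minus WT hippocampus, with its SE for 11 GABA and glycine receptor genes, 12 ionotropic glutamate receptor subunits and 24 Eph, ephrin and semaphorin genes, coloured by call. Gabra6 (8.19) and Gabrd (3.71) stand apart from the other inhibitory receptor genes, Grin2c and Gria4 are positive beside Grin2b, Gria1, Gria2 and Gria3, and Epha7, Epha5, Epha6 and Epha4 lie between -3.10 and -2.73.

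Genes of GABA and glutamate synthesis, transport and breakdown were split evenly, with 4 higher, 4 lower and 5 not called of 13 tested (28 listed). Besides Slc1a6, Slc38a2 (a glutamine carrier), Slc32a1 and Slc6a9 were higher by small amounts. Slc38a2 (0.62) lost its call without mouse 3406 (0.45, adjusted p = 0.132). Slc1a1, the neuronal glutamate transporter EAAC1, read 73.7, 82.9 and 69.3 in cerebellum, against 256, 235 and 257 in hippocampus (log2 -1.73, adjusted p = 1.56e-07). The astrocyte transporter Slc1a2 was lower by 0.74, which became -0.31 (adjusted p = 0.376) without mouse 3405, and glutamine synthetase Glul by 0.60, which became -0.49 (adjusted p = 0.0665) without the same mouse. Without mouse 3405, 3406 and 3396, the number higher was 4, 1 and 3 and the number lower 2, 4 and 5. Slc1a1 and Slc1a6 kept their calls, in opposite directions, whichever mouse was left out.

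G protein-coupled receptors were mostly lower, 16 of 31 tested (66 listed) against 4 higher, with a median of -0.58. Crhr1, the receptor of corticotropin-releasing hormone, was the main exception, with 287, 329 and 313 in cerebellum, against 47.3, 37.8 and 42.5 in hippocampus (7.29-fold higher, adjusted p = 6.45e-09). Chrm1, the muscarinic acetylcholine receptor of forebrain neurons, read 6.76, 17 and 9.15 in cerebellum, against 226, 254 and 259 in hippocampus (log2 -4.42, adjusted p = 5.34e-08). The receptors of 2 peptides that were themselves lower were lower too: Sstr2, for somatostatin, by 3.16 (-3.77 without mouse 3396 and -2.52 without mouse 3406), and Npy2r, for neuropeptide Y, by 2.46, with Npy1r at least 6.34-fold lower. Serotonin receptors Htr1a (-2.43) and Htr5b (-1.57) were lower, as was the neurotensin receptor Ntsr2 (-1.93). The number called higher was 3, 2 and 4 without mouse 3405, 3406 and 3396, and Crhr1 was read far apart in each mouse.

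Ion channels were called in both directions. Of 24 tested potassium channel genes (58 listed), 4 were higher and 7 lower. The number higher was near the share over all probe sets (14.7%). Kcnj12, an inward rectifier, read 245, 204 and 109 in cerebellum, against 18.3, 11.3 and 11.4 in hippocampus (13.2-fold higher), and the leak channel Kcnk1 was 3.03-fold higher. Kcnab2, a beta subunit, was 5.17-fold lower, and the inward rectifier Kcnj4 was lower by 1.40. Of 12 tested calcium and sodium channel genes (26 listed), 2 were higher, including Cacna1g, and 5 lower. The number higher was again near the share of 14.7%. Centring on the median left 3 lower, and without mouse 3405, 3406 and 3396 there were 3, 4 and 2 lower. Fgf13, an intracellular regulator of sodium channels, read 33.6, 42.8 and 43.8 in cerebellum, against 309.5, 306 and 331 in hippocampus (log2 -2.99, adjusted p = 8.75e-10). Its relative Fgf14, linked to an inherited ataxia in humans, was at least 4-fold higher, with 43.8, 33.4 and 37 in cerebellum, against 7.38, 6.61 and 7.8 in hippocampus, all under the floor (adjusted p = 0.0038).

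Calcium-binding proteins were called in both directions. Of 25 tested calcium-binding and calmodulin-binding genes (42 listed), 9 were higher and 10 lower. Beside the buffers above, the calcium sensor Hpcal1 (4.34-fold), the kinase gene Camk2d (4.83-fold) and Camk4, a nuclear kinase of granule cells (log2 1.29), were higher. Hpca, Camk2a and Nrgn were lower, with Camk2b lower by 0.61 and the calcineurin subunit Ppp3r1 by 1.15. Of 52 tested genes of cyclic nucleotide, phosphoinositide and G protein signalling (82 listed), 24 were lower and 6 higher (18 lower with arrays centred on the median). Rgs8, a G protein regulator of Purkinje cells, read 1783, 1510.0 and 1273 in cerebellum, against 221, 212 and 219 in hippocampus (6.94-fold higher, adjusted p = 1.66e-10). Inpp5a, which ends inositol trisphosphate signals, was 5.93-fold higher (log2 2.57, or 1.58 by its dimmer probe set). The cyclic GMP phosphodiesterase Pde9a was higher by 1.70. The calmodulin-dependent phosphodiesterases Pde1a (-3.31) and Pde1b (-1.13), the adenylyl cyclase Adcy2 (-1.57), the protein kinase C genes Prkca (-1.36) and Prkce (-1.04) and the ryanodine receptor Ryr3 (-1.22) were lower.

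Vesicle and synaptic adhesion genes were lower for 14 and higher for 6 of 32 tested (61 listed), with a median of -0.39. Synaptotagmins, the calcium sensors of release, took different directions. Syt2, the fast sensor of hindbrain neurons, was 6.01-fold higher by its brightest probe set, and Syt9 was 6.68-fold higher. Syt5 read 82.2, 116 and 85.3 in cerebellum, against 531, 548 and 489 in hippocampus (log2 -2.48), and Syt1, the main forebrain sensor, was lower by 1.11. The synaptobrevin gene Vamp1 was higher by 1.27 and syntaxin Stx1a lower by 2.37. Snap25, the partner of both in the release complex, differed by 0.06 (adjusted p = 0.675).

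Peptides and secreted factors were lower for 19 and higher for 7 of 42 tested (62 listed). Bdnf, a neurotrophin, read 344, 149.8 and 153 in cerebellum, against 531, 518 and 649.7 in hippocampus (log2 -1.50, adjusted p = 0.00108), with mouse 3405 highest in cerebellum. Tac2, a tachykinin precursor, was at least 7.84-fold lower, and the pituitary adenylate cyclase-activating peptide gene Adcyap1 (-1.37), Tgfb2 (-1.92) and the receptor gene Gfra1 (-1.86) were lower. Fgf9, a growth factor of granule cells known to act on Bergmann glia, was 2.53-fold higher.

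Guidance and adhesion genes leaned towards hippocampus, with 24 of 52 tested (83 listed) lower and 7 higher in cerebellum and a median of -0.54. Several Eph receptors, which repel growing axons, were among the lower genes. Epha7 read 54.1, 40.4 and 22.9 in cerebellum, against 259, 379.6 and 322 in hippocampus (log2 -3.10, adjusted p = 1.42e-07). Epha6 read 18.6, 20.1 and 18.9 in cerebellum, against 133, 137 and 141 in hippocampus (log2 -2.84). Epha4 read 47.4, 52.6 and 59.2 in cerebellum, against 350.3, 339.6 and 359 in hippocampus (log2 -2.73), and Epha5 was lower by 2.84. The values were tight within regions for Epha4 and Epha6. Epha8 went the other way (1.54). The semaphorin receptor Nrp1 (-2.76), the cadherins Cdh13 (-2.75) and Cdh11 (-2.16), the teneurin Tenm3 (-2.68) and Sema3c (at least 4.48-fold) were lower, as was the slit receptor Robo1 (-2.26, or -2.85 without mouse 3405). Cdh15, M-cadherin, was 5.16-fold higher and the attractant Ntn1 higher by 1.40.

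Wnt and hedgehog genes were mixed, with 7 higher and 11 lower of 33 tested (52 listed), and the number lower was 8, 7 and 10 without mouse 3405, 3406 and 3396. Of the hedgehog members, Gli1, a transcription factor of the pathway, read 40.4, 39.6 and 44.9 in cerebellum, against 8.23, 8.49 and 6.28 in hippocampus, all under the floor (at least 4.39-fold higher, adjusted p = 0.00212). Ptch1, the hedgehog receptor and a target itself, was 2.85-fold higher (log2 1.51, or 0.52 by its dimmer probe set). The co-receptor Gas1 was higher by 1.33. The ligand Shh differed by -0.05 (adjusted p = 0.885). Wnt7a, a granule cell ligand, was at least 6.52-fold higher, whereas Wnt4 (at least 3.53-fold) and the secreted Dickkopf relative Dkk3 (-2.79) were lower.

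Astrocyte and oligodendrocyte genes had medians near 0. Of 21 tested astrocyte genes (28 listed), 7 were higher and 6 lower, with a median of 0.03; the number lower was 1, 4 and 5 without mouse 3405, 3406 and 3396. S100b read 636, 999 and 639.5 in cerebellum, against 267, 265 and 221 in hippocampus (2.96-fold higher), and aldolase C, Aldoc, was 1.78-fold higher. Clu (clusterin, a secreted chaperone) read 909, 899 and 857 in cerebellum, against 1908, 1899.9 and 1803 in hippocampus (log2 -1.07, adjusted p = 4.90e-08). The filament protein Gfap was not called by its brightest probe set (-0.46, adjusted p = 0.0629) and was lower by the other (-0.77, adjusted p = 0.0214). The gap junction protein Gja1 (0.03) was not called. Of 15 tested oligodendrocyte genes (30 listed), 3 were higher, 1 was lower and 11 were not called. The myelin genes Mbp (0.03) and Cldn11 (0.14) did not pass the threshold by their brightest probe sets, but their dimmer ones were lower (-0.50 and -1.13). The hippocampus of mouse 3396 was low in this list, with a sum of 8539.8 against 12115 and 12145 in the other two. The number higher was 5 with arrays centred on the median and 4, 2 and 1 without mouse 3405, 3406 and 3396, and Gjb1 (1.30) was 0.67 (adjusted p = 0.13) without mouse 3396. Pdgfra, of oligodendrocyte precursors, was lower (-0.84), though not by its dimmer probe set (-0.65, adjusted p = 0.0903).

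Microglial genes were lower in cerebellum for 8 of 11 tested (20 listed), with none higher and a median of -0.84. Csf1r, the receptor on which microglia depend, read 141, 152 and 176 in cerebellum, against 324, 324 and 394 in hippocampus (log2 -1.15, adjusted p = 9.29e-06). Its dimmer probe set gave -0.04 (adjusted p = 0.897). C1qb, a chain of the first complement component, read 106, 108 and 119 in cerebellum, against 229, 227 and 246 in hippocampus (log2 -1.07, or -0.49 with adjusted p = 0.0506 by its dimmer probe set), and C1qa (-0.90) and C1qc (-0.84) were lower too. The summed signal of the 11 genes was 1173, 1225 and 1461 in cerebellum, against 2307, 2371 and 2251 in hippocampus, with no overlap. Cx3cr1 (-0.46, adjusted p = 0.0755) was not called except without mouse 3396 (-0.75, adjusted p = 0.0143), and Tyrobp (-0.84) lost its call without mouse 3405 (-0.63, adjusted p = 0.164) and without mouse 3396 (-0.90, adjusted p = 0.0537). Of 15 tested vascular genes (20 listed), 1 was higher and 1 lower. Cldn5, a tight junction protein, lost its call (0.42) without any one of the WT mice (adjusted p = 0.196, 0.0724 and 0.0674 without mouse 3405, 3406 and 3396). Tagln, of smooth muscle, lost its call (-0.59) without mouse 3405 (-0.43, adjusted p = 0.234), without mouse 3406 (-0.56, adjusted p = 0.148) and with arrays centred on the median.

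Choroid plexus genes varied between animals. Of 15 tested genes of choroid plexus, ependyma and meninges (24 listed), 9 were lower in cerebellum and none higher; without mouse 3405, 3406 and 3396 there were 3, 3 and 8 lower. Ttr, the thyroid hormone carrier transthyretin made by choroid plexus, read 27, 88.1 and 1112 in cerebellum, against 1475, 1902 and 1158 in hippocampus (log2 -3.42 ± 0.85, adjusted p = 0.00672). Kl, the klotho gene, read 3.48, 4.63 and 48.4 in cerebellum, against 117, 153 and 99.4 in hippocampus (log2 -2.89), and the folate receptor Folr1 read 20.8, 10.5 and 114 in cerebellum, against 121, 149 and 126 in hippocampus (log2 -2.17). In all 3 genes the cerebellum of mouse 3396 was far above those of the other two, and for Ttr and Folr1 it came close to the hippocampal values. The Ttr difference was -5.10 without mouse 3396, -2.25 (adjusted p = 0.117) without mouse 3405 and -2.92 (adjusted p = 0.0827) without mouse 3406. The same omissions gave -3.82, -2.53 and -2.33 for Kl, with adjusted p of 0.0782 without mouse 3405 and 0.0706 without mouse 3406. For Folr1 the difference was -3.19 without mouse 3396 and -1.34 (adjusted p = 0.0671) without mouse 3406. The part of choroid plexus tissue in these samples was not tested.

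Immediate early genes, switched on by neuronal activity, were lower for 11 and higher for 2 of 19 tested (25 listed), with a median of -0.87. Egr1 read 82.7, 151 and 106 in cerebellum, against 528, 464 and 519.8 in hippocampus (log2 -2.20, adjusted p = 4.91e-06). The orphan receptors Nr4a2 (-1.98) and Nr4a1 (-1.63), Egr2 (-1.63), the phosphatase Dusp6 (-1.50), Junb (-1.36) and cyclooxygenase Ptgs2 (at least 4.02-fold) were also lower. Fos did not follow them (0.17, adjusted p = 0.749), and Ier2 was 2.62-fold higher. The other higher gene, Dusp1 (0.83), lost its call without mouse 3396 (0.67, adjusted p = 0.0952) and without mouse 3406 (0.72, adjusted p = 0.125).

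Among 41 tested cytoskeleton genes (49 listed), 13 were lower, 4 were higher and 24 were not called. Ank1, an ankyrin of cerebellar neurons, read 1944, 1453 and 1641 in cerebellum, against 423, 467 and 401 in hippocampus (3.88-fold higher). Myo5b, a myosin that carries receptors into dendritic spines, read 5.56, 6.56 and 21.6 in cerebellum, against 269, 333 and 354 in hippocampus (log2 -4.67, adjusted p = 6.45e-09). Its dimmer probe set gave a smaller difference of -1.20 (adjusted p = 0.00468). Neurofilament Nefl read 219, 221 and 230.4 in cerebellum, against 528, 499 and 514 in hippocampus (log2 -1.20). The number higher was 3, 1 and 3 without mouse 3405, 3406 and 3396.

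Genes of the mitochondrial respiratory chain were shifted by small amounts, mostly upwards: 21 of 53 tested (70 listed) were higher, 2 were lower, and the median was 0.23. Uqcrb, a complex III subunit, read 836, 793 and 782 in cerebellum, against 356, 394 and 399 in hippocampus (2.1-fold, adjusted p = 1.09e-06), and Atp5e was 1.75-fold higher. Cox6a2, known as the heart and skeletal muscle form of a cytochrome oxidase subunit, was lower by 2.23, and Ndufa10 by 0.52, a call lost without mouse 3405 (-0.39, adjusted p = 0.0754). With arrays centred on the median, 28 were higher, and without mouse 3405, 3406 and 3396 there were 17, 16 and 13. Of 25 tested ribosomal protein genes (78 listed), 3 were lower and none higher, with a median of -0.14. Centring on the median left 1 lower and 1 higher, so the list has no settled direction, and without mouse 3405, 3406 and 3396 there were 1, 1 and 4 lower. Rpsa (-0.42, adjusted p = 0.00213) had the firmest call. Of 44 tested chromatin and RNA-processing genes (61 listed), 8 were higher and 5 lower, not far from the shares over all probe sets (14.7% and 16.4%). Centring on the median raised the number higher to 13. The number lower was 4, 3 and 3 without mouse 3405, 3406 and 3396. Hnrnpu, a nuclear RNA-binding protein, read 196, 239 and 167 in cerebellum, against 77.5, 68.6 and 35.1 in hippocampus (3.47-fold higher), while the RNA-binding protein Elavl2 was lower by 1.78.

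The same 2 regions of the KO mice gave the same measure in other animals. In KO mice 1570 probe sets (18.7%) were higher in cerebellum and 1785 (21.3%) were lower. Of the WT calls, 2036 were called in the same direction in KO mice, 78.1% of the 2608 in WT and 60.7% of the 3355 in KO mice, and 2532 had the same sign. Of 860 WT calls of at least 2-fold, 773 were repeated. By their brightest probe sets, the log2 difference of Gabra6 was 7.77 in KO and 8.19 in WT mice, that of Ppp1r17 6.37 in KO and 6.44 in WT mice. The regional difference itself was tested between genotypes, and 1 probe set of 8382 (0.0119%) passed (692 at an unadjusted p under 0.05). It belongs to Septin4, a cytoskeletal GTPase: its WT values were 104, 53.2 and 83.5 in cerebellum and 51.6, 34.6 and 57.7 in hippocampus, and the regional log2 difference was 3.34 in KO and 0.72 in WT mice (adjusted p of the change = 0.0404). The brighter Septin4 probe set gave 2.85 in KO and 2.21 in WT mice (adjusted p = 0.482). Other sizeable changes did not pass, among them Cacna1g (4.87 in KO and 2.97 in WT mice, adjusted p = 0.123). With the same adjusted p, the oligodendrocyte list members Mal (1.46 in KO, 0.09 in WT mice) and Mobp (1.24 and 0.08) did not pass. Nor did Lst1 (-2.81 in KO, -0.95 in WT mice). Ttr differed by -0.44 in KO and -3.42 in WT mice, and that WT value is the one that varied with the mouse left out.

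**Figure D5:**
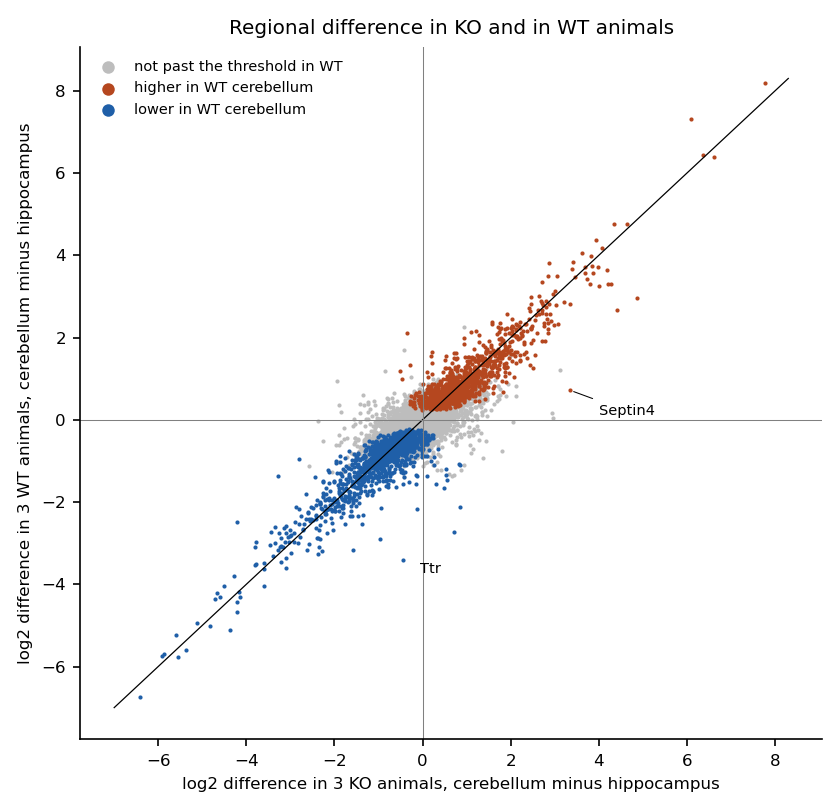
Log2 difference between cerebellum and hippocampus in KO mice (horizontal) and WT mice (vertical) of 8382 probe sets, 3 mice each, with the line of equal values; red points were higher in WT cerebellum, blue points lower and grey points not past the threshold in WT mice. Most probe sets with a large difference lie near the line, with 1 Septin4 probe set (3.34 in KO, 0.72 in WT mice) and Ttr (-0.44 in KO, -3.42 in WT mice) away from it.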

How the data were processed

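RNA of 18 brain samples was read on Affymetrix arrays of 12488 probe sets, 66 of them controls that were left out. The deposited values are linear intensities per probe set as the authors left them, and their 2% trimmed mean is the same on each array; the sources used here do not name the software. Values under the 20th percentile of all signals (9.464) were set to it and log2 was taken. Probe sets above the 40th percentile of the array on at least 3 arrays (8382) were tested with limma 3.58.1 in R 4.3.3: group means of all 18 arrays, the animal as a fixed block, an intensity trend, and Benjamini-Hochberg adjustment over all probe sets at 0.05, two-sided (8 residual degrees of freedom, 6.363 prior). A fold against a region with all 3 arrays under the floor is a bound. Exact permutation of 3 against 3 arrays, which ignores the pairing by animal, cannot go below 0.1 and was not used.

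The block rests on the labels, which number the mice: arrays of one mouse had correlated residuals (median 0.135, against -0.0159 between mice; WT cerebellum with hippocampus 0.0775, 0.163 and 0.177). The fit was tested on simulated data with few regional differences, unlike the real arrays. There it recovered 30% of planted log2 changes of 0.5, 74% of those of 1.0 and 92% of those of 2.0. Of 151 calls in that simulation, 7 were false.

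The comparison and the gene lists were chosen with earlier results of these data known, and the cell type lists hold known markers of the 2 regions, so their counts are descriptions. Named genes were picked from list members, by brightest probe set, and the 15 largest differences per direction with all arrays above the floor. Others came from the 10 brightest per direction against a region under the floor, and the 10 lowest p for genotype by region. Not every gene of these sets is named. The platform annotation gives 10855 probe sets 1 symbol, 396 several and 1237 none, and 10839 of the first were found in RefSeq. Other scalings, floors, filters, blocks, sample sets and the omission of each mouse were tried. The number of arrays limits the precision. The p-values rest on the spread left after the animal block, taken over all groups of both genotypes and drawn towards the prior. They do not measure the spread between the WT mice alone.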

Additional observations from a re-analysis of the deposited data

Results flagged for a closer look

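One result differed between the genotypes by a test of the difference itself. For a dim Septin4 probe set the regional log2 difference was 3.34 in KO and 0.72 in WT mice, so that the KO difference exceeded the WT difference by 2.62 (limma interaction, adjusted p = 0.0404). The brighter Septin4 probe set differed by 0.64 (adjusted p = 0.482). No cause was tested.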

How the results depend on the processing

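No probe set called in WT changed its sign to a call in the other direction under the alternatives run, and 65.9% (without mouse 3406) to 98.7% (no floor) of the 2608 calls were made again. The counts of higher and lower probe sets were 1631 and 981 with median scaling, 1238 and 1187 with quantile normalization, and 1167 and 1271 with no replicate block for the animal. Leaving out each mouse in turn gave 815 to 1191 higher, the lowest without mouse 3406, 967 to 1320 lower, and 1568 to 1771 calls repeated in KO mice. The single probe set whose difference changed with genotype was the least settled: 0 passed with no floor, no filter, the 60th percentile filter, no intensity trend or only the 12 cerebellum and hippocampus arrays, 2 with no replicate block, 3 with the animal as a random block, and 0 to 5 on leaving out each mouse (5 without mouse 3405, 3 without mouse 3396). Of 208 called probe sets of the genes named, 15 lost their call with no filter, 9 with no replicate block, 6 with quantile normalization, 5 with median scaling and 18, 16 and 10 without mouse 3405, 3406 and 3396; no named call turned its direction. Adding 16 in place of the floor moved no count by over 1.5 times. Probe sets near the floor have no order among themselves, and signals of different probe sets were not compared.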

Other observations

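Of 200 genes with at least 2 called probe sets, 6 had calls in opposite directions, and they are named after their values were seen. Pnkd differed by 0.71 (adjusted p = 0.00654) and -0.59 (adjusted p = 0.00216) between cerebellum and hippocampus, and Cwc15 by 0.67 (adjusted p = 0.00254) and -1.11 (adjusted p = 0.0214). Inpp1 gave 0.84 (adjusted p = 0.00173) and -0.53 (adjusted p = 0.045), and Gtf2ird2 gave 1.17 (adjusted p = 0.00314) and -1.08 (adjusted p = 0.0123). Erp29 gave 0.62 (adjusted p = 0.00674) and -1.07 (adjusted p = 0.0334), where the negative one came from a probe set with 2 cerebellum arrays under the floor. Amz2 gave 0.38 (adjusted p = 0.0204) with one probe set, against -0.93 and -0.38 with the others. Among the brightest probe sets of these genes, leaving out 1 WT mouse at a time ended calls: the negative calls of Gtf2ird2 (adjusted p = 0.0666 without mouse 3405) and Inpp1 (0.111 without mouse 3405 and 0.242 without mouse 3406), the Amz2 call of -0.38 (0.096 without mouse 3396 and 0.0799 without mouse 3405) and the positive call of Erp29 (0.0827 without mouse 3406) were lost.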
